A study of Homo sapiens with 18 samples.

Results

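The genes described here are 10 chaperones and stress-regulated genes of the endoplasmic reticulum (ER), taken by gene symbol from the count tables, which list 61544 genes. They are HSPA5, HSP90B1, CALR, CANX, PDIA4, PDIA6, DNAJB9, HERPUD1, SDF2L1 and XBP1. All 10 had enough counts to be tested for knockdown and 9 of them for overexpression, where SDF2L1 was too low. Poly(A) RNA was sequenced from BJ cells, an established line of human skin fibroblasts, in 18 libraries that form 6 groups of 3. Knockdown of the long noncoding RNA PURPL used CRISPR interference, in which a guide RNA brings a transcriptional repressor to its target. The guide groups were sgPURPL-1 and sgPURPL-2 (guides 1 and 2), against a control guide, sgCtrl. Overexpression of PURPL was measured in groups PURPL-OE-1 and PURPL-OE-2 against their own control, Ctrl. Sources used here do not tell whether the last pair of PURPL groups are lines, constructs or clones, what drives PURPL in them, which repressor was used, or whether replicates were grown as separate cultures. P-values therefore measure only the spread between these libraries, which may be technical. The labels name no drug or stress treatment, and all groups share the BJ background. Groups also differ by guide or by overexpression group, and effects of these cannot be told apart from effects of PURPL level.

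The ER folds secreted and membrane proteins, and fibroblasts send large amounts of collagen through it. When unfolded protein builds up there, 3 sensors in the ER membrane, IRE1 (gene ERN1), PERK (EIF2AK3) and ATF6, start the unfolded protein response. IRE1 splices the mRNA of XBP1, PERK slows translation and favours that of ATF4, and ATF6 is cut to release a transcription factor. ATF6 and spliced XBP1 raise chaperone genes, many of them through a promoter motif called the ER stress response element (ERSE), while ATF4 raises genes such as DDIT3, ATF3, TRIB3 and PPP1R15A. Counts per gene do not tell spliced from unspliced XBP1 mRNA, nor do they measure protein.

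The promoter sequences are shown because most of these genes are textbook targets of the same factors, through the same short motif. Windows of 300 bases, from 250 before to 50 after each annotated start, were taken from RefSeq (GRCh38.p14), and all 10 genes matched, with 16 windows. The motif ERSE (CCAAT, any 9 bases, then CCACG, on either strand) was found in 6 of the 10 genes, against 25 of 27305 genes with a window (0.0916%) and 27 of 35116 windows (0.0769%). These 6 are HSPA5, HSP90B1 (which has 2 matches), CALR, CANX, PDIA6 and XBP1. The shorter variant ERSE-II (ATTGG, any 1 base, then CCACG, on either strand) was found in HERPUD1 and SDF2L1. Over all genes with a window it was in 19 of 27305 (0.0696%), and in 19 of 35116 windows (0.0541%). The UPRE (TGACG directly followed by TGG, on either strand) was in none of the members' windows and in 256 of all windows (0.729%). PDIA4 and DNAJB9 held no exact match to any of the 3. A match is a description of these letters, and no match says only that they are not in this window. The ERSE sites are printed 5′ to 3′ on the strand of the gene, with the motif in capitals and 5 bases of flank on each side. In CALR and in the second site of HSP90B1 the motif lies on the other strand and reads reversed and complemented.
HSPA5, chr9:125241386-125241414, minus strand: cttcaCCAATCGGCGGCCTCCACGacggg
HSP90B1, chr12:103930211-103930239, plus strand: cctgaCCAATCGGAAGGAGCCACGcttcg
HSP90B1, chr12:103930316-103930344, plus strand: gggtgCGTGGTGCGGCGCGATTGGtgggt
CALR, chr19:12938379-12938407, plus strand: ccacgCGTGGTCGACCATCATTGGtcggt
CANX, chr5:179698773-179698801, plus strand: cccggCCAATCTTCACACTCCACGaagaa
PDIA6, chr2:10812848-10812876, minus strand: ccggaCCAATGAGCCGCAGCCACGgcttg
XBP1, chr22:28800598-28800626, minus strand: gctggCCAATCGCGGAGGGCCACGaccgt

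The sites of HSPA5, CALR and XBP1 lie outside the gene spans of the tables, that of PDIA6 lies inside the gene span and in no annotated exon, and those of HSP90B1 and CANX overlap exons of GENCODE 29. The ERSE-II sites lie upstream of the spans of HERPUD1 and SDF2L1. In SDF2L1 the motif is on the other strand.
HERPUD1, chr16:56932020-56932040, plus strand: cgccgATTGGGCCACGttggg
SDF2L1, chr22:21642109-21642129, plus strand: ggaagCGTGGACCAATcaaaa

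HSPA5 is the member whose level moved in opposite directions in the 2 experiments, so a longer stretch of its upstream sequence is given. These 211 bases end directly before the gene span of the tables (chr9:125241383-125241593, minus strand). They hold 4 CCAAT boxes, 3 on the strand of the gene and 1 on the other, and the ERSE nearest the start is in capitals.
HSPA5 upstream: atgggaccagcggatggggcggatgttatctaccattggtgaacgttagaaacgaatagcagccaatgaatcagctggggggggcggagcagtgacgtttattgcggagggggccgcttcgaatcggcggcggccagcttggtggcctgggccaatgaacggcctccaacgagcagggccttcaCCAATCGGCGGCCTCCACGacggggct

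**Figure D1:**
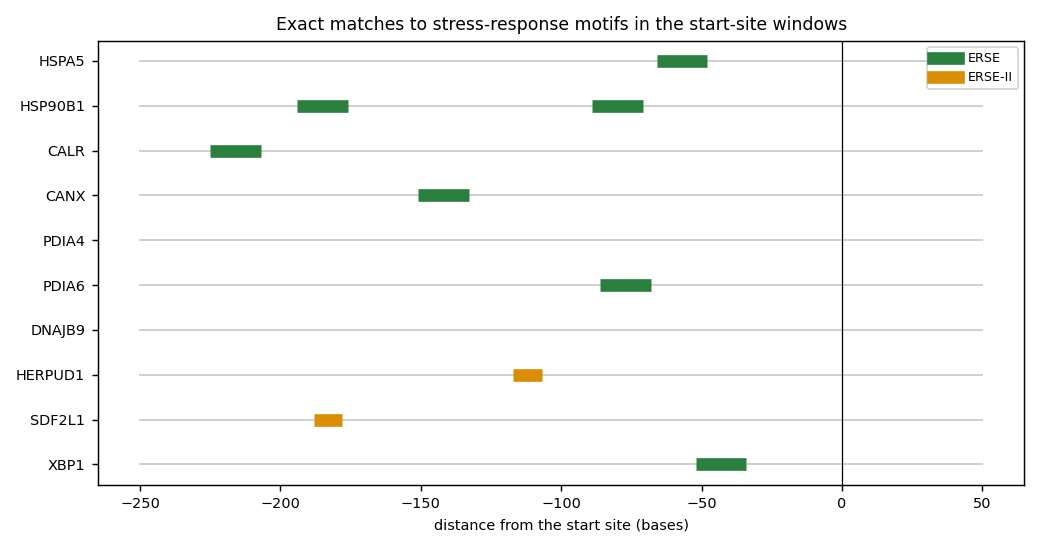
Positions of exact ERSE and ERSE-II matches in the RefSeq start-site windows of the 10 genes, in bases from the annotated start (x axis; grey lines span the window; 1 start site is drawn per gene). The ERSE of HSPA5 lies 66 to 48 bases and that of XBP1 52 to 34 bases before the start, that of CALR 225 to 207 bases before it, and no bar is drawn for PDIA4 and DNAJB9.

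PURPL followed the labels in every library. It measured 71.1 to 94.3 CPM (TMM-scaled counts relative to the library total) in sgCtrl against 14.1 to 21.5 CPM with the guides, and 59.2 to 67.3 CPM in Ctrl against 114 to 178 CPM in the overexpression groups. Libraries of the knockdown experiment held 11444513 to 12896040 counts, those of the overexpression experiment 18858976 to 27985649. All 10 fibroblast markers were tested in both tables, while summed markers of keratinocytes stayed at or under 15.6 CPM and those of endothelial, melanocyte and immune cells at or under 5.18 CPM. The summed fibroblast markers measured 23488 to 23999 CPM in Ctrl and 28527 to 32063 CPM in the overexpression groups. The mitochondrial share of counts was 4.26% to 4.80% in Ctrl and 4.97% to 6.24% in those groups, and the share of the 10 most abundant genes 7.88% to 8.24% and 9.56% to 9.89%. Both shares and the markers moved with overexpression, and their part in the results below was not tested. In bulk RNA, fewer cells of a type and less RNA per cell cannot be told apart.

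The levels of the 10 genes differed widely. The gene lengths given with the counts span whole genes, introns included (CANX 53014 bases, 6235 of them exonic). Intronic reads may thus be counted, so levels per kilobase of exon are approximate. Per kilobase of exon (GENCODE 29), the mean level in sgCtrl was highest for CALR at 655 CPM per kb, a calcium-binding lectin chaperone of glycoproteins. HSP90B1 (GRP94, the ER member of the HSP90 family) followed with 400 CPM per kb and HSPA5 (BiP, the ER member of the HSP70 family, which also holds the sensors inactive) with 277. CANX, the membrane-bound partner of CALR, stood at 207 CPM per kb. The disulfide isomerases PDIA6 and PDIA4 measured 91.5 and 55.8 CPM per kb, and the transcription factor gene XBP1 42.8. DNAJB9 (ERdj4, a cochaperone of BiP) at 9.85, HERPUD1 (a membrane protein of ER-associated degradation) at 7.25 and SDF2L1 (a partner of BiP and DNAJ proteins) at 3.36 CPM per kb were the lowest. In Ctrl of the overexpression table the first 6 stood in the same order except that PDIA4 lay below XBP1 (46.2 against 59.7 CPM per kb), and HERPUD1 (9.81) lay above DNAJB9 (8.57). SDF2L1 was at 0.149 CPM per kb there. CALR (448 to 545 CPM per kb) and HSP90B1 (402 to 462) overlapped in Ctrl, and in PURPL-OE-1 HSP90B1 (mean 415) lay above CALR (mean 391). Because each table was normalised by itself, a difference of level from one table to the other may belong to the experiments. Together the 10 genes took 0.549% to 0.756% of all counts in a library.

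Reads on overlapping genes were checked in the counts: all 9425 genes nested in a gene of the same strand had 0 counts, while 79.7% of 1165 protein-coding genes nested only in a gene of the opposite strand had counts. Reads shared with a same-strand neighbour were thus not counted. Of the members, HSP90B1 loses 2.79% of its exonic bases in this way, to MIR3652. The same-strand neighbours that overlap CALR, CANX, PDIA6 and HERPUD1 cover none of their exonic bases in GENCODE 29, and HSPA5, PDIA4, DNAJB9, SDF2L1 and XBP1 overlap no same-strand gene.

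HSPA5 (ENSG00000044574.9, chromosome 9, 125234853 to 125241382, minus strand) rose with both guides. It measured 1132, 1094 and 1025 CPM in sgCtrl, guide 1 gave 1340, 1295 and 1367 CPM, and guide 2 gave 1517, 1533 and 1595 CPM. The 3 groups did not overlap, and guide 2 lay highest. The log2 fold change against sgCtrl was 0.30 ± 0.0569 (SE, n = 3 against 3, adjusted p = 0.000163 by edgeR's quasi-likelihood test) with guide 1 and 0.51 ± 0.0569 (adjusted p = 3.64e-08) with guide 2, that is 1.23-fold and 1.43-fold. With overexpression HSPA5 fell. It stood at 946, 851 and 939 CPM in the Ctrl libraries, at 797, 773 and 777 CPM in PURPL-OE-1 and at 752, 850 and 789 CPM in PURPL-OE-2. Every overexpression library lay below every control library, though the nearest of them (850.0 against 850.8 CPM) all but met. The log2 fold change was -0.22 ± 0.0545 (adjusted p = 0.00153) and -0.19 ± 0.0545 (adjusted p = 0.00517). Without 1 unnumbered library of PURPL-OE-2 (the one at 752 CPM) the last call was lost, at -0.15 with adjusted p = 0.0533.

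**Figure D2:**
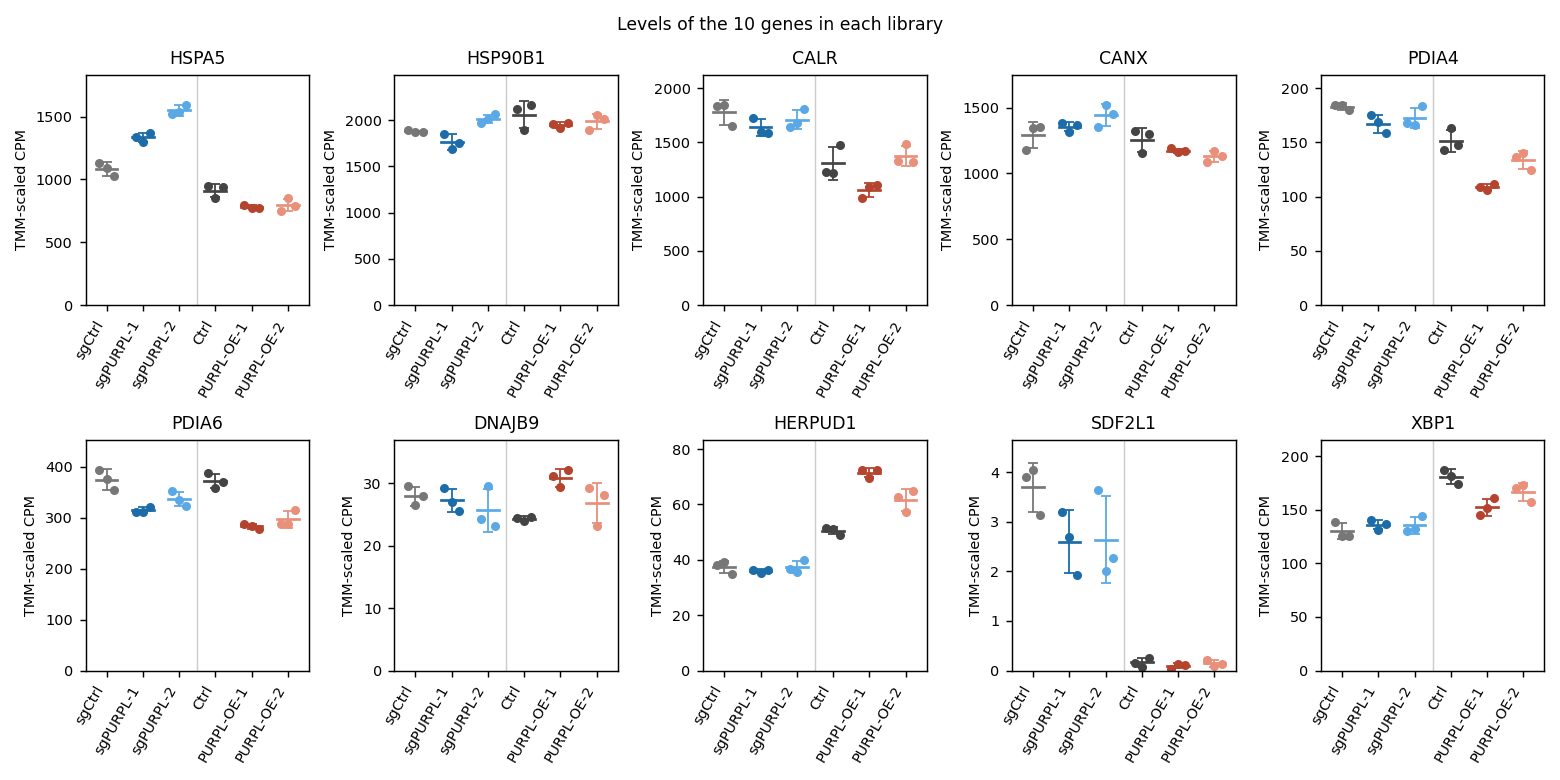
Level of each of the 10 genes in each library (y axis, TMM-scaled CPM, from 0; x axis, the 6 groups; points are libraries, the horizontal bar is the group mean and the error bar 1 SD, n = 3; the vertical line parts the tables, which were normalised separately). HSPA5 steps up from sgCtrl to guide 1 to guide 2, HERPUD1 stands highest in PURPL-OE-1, at 69.5 to 72.5 CPM, and SDF2L1 stays under 0.3 CPM throughout the overexpression table.

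Among the members, HSPA5 alone was called up with the guides. With guide 1, 1 of 10 members rose and 1 fell, where 11.6% of all 13923 genes tested rose and 12.9% fell. With guide 2 the count was again 1 up and 1 down, against 11.9% and 12.4% of all genes. These shares are near the background. The median log2 fold change of the 10 genes was -0.07 with guide 1 and -0.03 with guide 2, beside 0.00 for all genes in each case. Of the other large chaperones, HSP90B1 measured 1889, 1877 and 1874 CPM in sgCtrl, at guide 1 it was 1853, 1685 and 1757 CPM, and at guide 2 it was 1972, 2009 and 2062 CPM. Guide 1 lay below the controls and guide 2 above them, neither past the test (log2 -0.09, 95% interval -0.20 to 0.02, adjusted p = 0.252; and 0.10, -0.01 to 0.21, adjusted p = 0.208). CALR was at -0.12 (adjusted p = 0.162) and -0.06 (adjusted p = 0.546), and CANX at 0.07 (adjusted p = 0.459) and 0.16 (adjusted p = 0.0597). CALR overlapped sgCtrl with both guides and CANX with guide 1, while the lowest CANX library of guide 2 (1352 CPM) lay just above the highest of sgCtrl (1349 CPM).

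PDIA6, which forms and rearranges disulfide bonds, fell with the guides while HSPA5 rose. The sgCtrl libraries held 394, 377 and 355 CPM, those of guide 1 held 311, 311 and 322 CPM, and those of guide 2 held 352, 335 and 323 CPM. All guide libraries lay below all control libraries. The log2 fold change was -0.25 ± 0.0581 (adjusted p = 0.0014) with guide 1 and -0.16 ± 0.0580 (adjusted p = 0.0484) with guide 2. The second value sits at the threshold: the call was lost with sgCtrl replicate 1 left out (adjusted p = 0.0956), sgCtrl replicate 2 (0.116), guide 2 replicate 2 (0.127) or guide 2 replicate 3 (0.207), and with RLE scaling (0.0534), no filter on low counts (0.0586), only the compared groups in the fit (0.105) or the replicate block (0.0752). PDIA4 was at -0.13 (adjusted p = 0.125) and -0.08 (adjusted p = 0.345), with guide 1 at 158 to 175 CPM under sgCtrl at 179 to 185 CPM and guide 2 overlapping it.

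The remaining members did not pass with either guide. XBP1 measured 125 to 138 CPM in sgCtrl and 130 to 144 CPM with the guides (log2 0.07 and 0.06, adjusted p = 0.458 and 0.52). DNAJB9, at 23.2 to 29.5 CPM over the whole table, was at -0.03 and -0.12 (adjusted p = 0.847 and 0.369). HERPUD1, at 35 to 39.9 CPM, was at -0.05 (95% interval -0.21 to 0.10) and 0.00 (-0.15 to 0.16). SDF2L1 had 22 to 52 counts per library, and its log2 values of -0.49 ± 0.238 and -0.48 ± 0.238 (adjusted p = 0.136 and 0.144) came with wide 95% intervals, -0.98 to -0.01 and -0.97 to 0.00. Leaving out 1 library moved 3 of these values past the threshold: CALR with guide 1 without sgCtrl replicate 3 (-0.17, adjusted p = 0.0357), SDF2L1 with guide 2 without guide 2 replicate 1 (-0.78, adjusted p = 0.036), and CANX with guide 2 without sgCtrl replicate 3 (0.19, adjusted p = 0.0233) or without guide 2 replicate 1 (0.20, adjusted p = 0.0388).

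Guide 2 against guide 1 asks whether the guides act alike on these genes. HSPA5 was higher with guide 2 by a log2 difference of 0.22 ± 0.0568 (adjusted p = 0.0119) and HSP90B1 by 0.19 ± 0.0557 (adjusted p = 0.0256). Thus 2 of 10 members were higher and 0 lower, where 5.51% of all genes were higher and 3.74% lower, and the members' median was 0.06 beside 0.00 for all genes. Both calls were lost in some fits with 1 library left out, while the log2 values stayed positive. Over 12 alternatives HSPA5 ran from 0.19 to 0.24 and HSP90B1 from 0.16 to 0.23. With a library left out, 544 to 610 of all genes were called higher in place of 767. Those called lower numbered 337 to 378 in place of 521. HSPA5 lost its call without guide 1 replicate 2 (adjusted p = 0.0836) or guide 2 replicate 3 (0.0817). HSP90B1 lost it without guide 1 replicate 2 (0.171), guide 1 replicate 3 (0.114), guide 2 replicate 2 (0.0851) or guide 2 replicate 3 (0.124), and with the replicate block (0.0591). PURPL itself was at 0.30 ± 0.119 between the guides (adjusted p = 0.128, or 0.0386 with only the 2 groups compared in the fit).

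With overexpression more members passed the test than with the guides, and so did a larger share of all genes. Libraries of this experiment also held more counts, and the part of depth was not tested. In PURPL-OE-1, 5 of 9 tested members fell and 2 rose, where 20.1% of all 15267 genes tested fell and 19.5% rose. In PURPL-OE-2, 4 fell and 1 rose, where 19.6% fell and 18.9% rose. The members that rose are near the background share in both groups. The members' median log2 fold change was -0.22 and -0.12, beside 0.01 and 0.01 for all genes. The 2 comparisons share the Ctrl libraries. Those that fell in both groups were HSPA5, PDIA4 and PDIA6, and the gene that rose in both was HERPUD1.

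**Figure D3:**
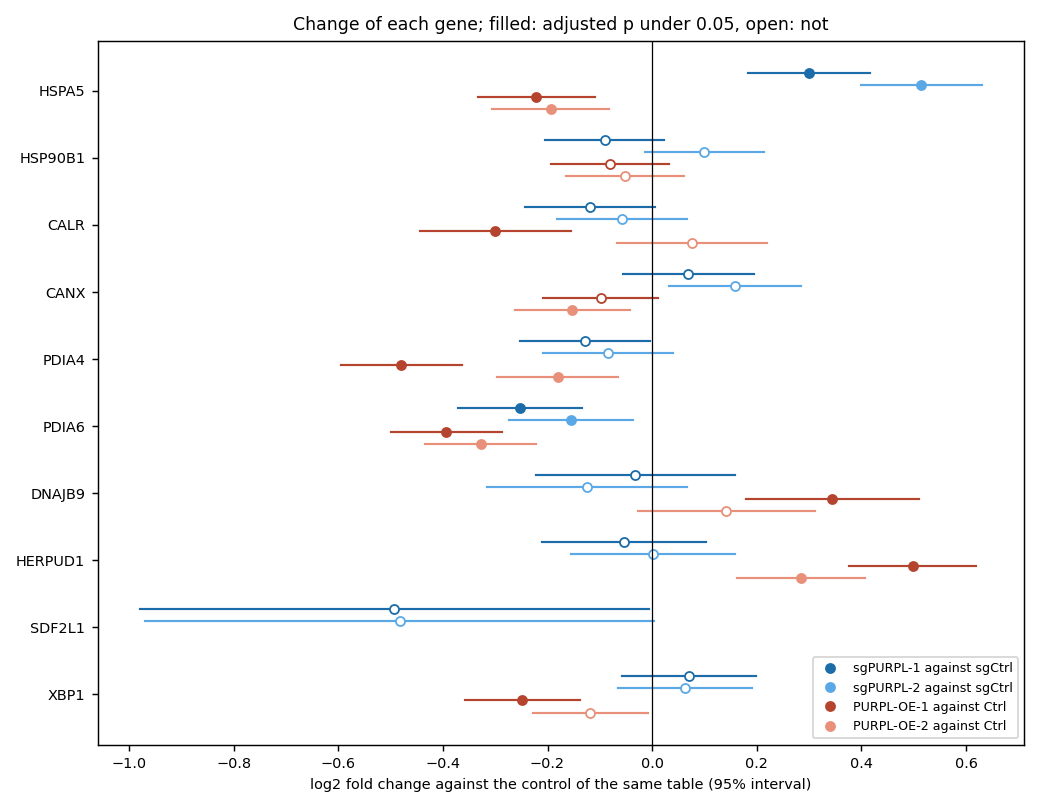
Log2 fold change of each member against the control of its own table (x axis; point, estimate; line, 95% interval; filled, adjusted p under 0.05; open, not) for the 4 comparisons, by gene (y axis). The HSPA5 points lie right of 0 for the guides (0.30 and 0.51) and left of it for overexpression (-0.22 and -0.19), PDIA6 lies left of 0 in all 4, and HERPUD1 lies well right of 0 with overexpression (0.50 and 0.29) and close to 0 with the guides (-0.05 and 0.00); SDF2L1 has no overexpression points.

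Both disulfide isomerases fell in both overexpression groups. PDIA4 stood at 143, 163 and 148 CPM in the Ctrl libraries, at 109, 106 and 111 CPM in PURPL-OE-1 and at 136, 140 and 125 CPM in PURPL-OE-2. Both groups lay below the controls, PURPL-OE-1 by far the lower. The log2 fold change was -0.48 ± 0.0567 (adjusted p = 4.11e-08) in PURPL-OE-1 and -0.18 ± 0.0566 (adjusted p = 0.0117) in PURPL-OE-2. The latter call was lost without Ctrl replicate 2 (-0.12, adjusted p = 0.104) or without PURPL-OE-2 replicate 3 (-0.13, adjusted p = 0.0874). PDIA6 stood at 387, 359 and 371 CPM in the Ctrl libraries, at 289, 283 and 278 CPM in PURPL-OE-1 and at 287, 287 and 316 CPM in PURPL-OE-2, with no overlap. Its log2 fold change was -0.39 ± 0.0518 (adjusted p = 2.87e-07) and -0.33 ± 0.0519 (adjusted p = 6.43e-06).

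Of the lectin chaperones, CALR fell in PURPL-OE-1 and CANX in PURPL-OE-2. CALR stood at 1225, 1216 and 1480 CPM in the Ctrl libraries, at 988, 1090 and 1107 CPM in PURPL-OE-1 and at 1327, 1483 and 1323 CPM in PURPL-OE-2. It fell in PURPL-OE-1 (-0.30 ± 0.0693, adjusted p = 0.00138) and was at 0.08 ± 0.0693 in PURPL-OE-2 (adjusted p = 0.419), where it overlapped the controls. One Ctrl library stood apart from the others at 1480 CPM, and without it (Ctrl replicate 3) the value in PURPL-OE-2 was 0.17 with adjusted p = 0.0212. CANX stood at 1319, 1153 and 1297 CPM in the Ctrl libraries, at 1190, 1162 and 1168 CPM in PURPL-OE-1 and at 1087, 1168 and 1136 CPM in PURPL-OE-2, and both groups overlapped the lowest control. It was at -0.10 ± 0.0540 in PURPL-OE-1 (adjusted p = 0.153) and fell by 0.15 ± 0.0541 on the log2 scale in PURPL-OE-2 (adjusted p = 0.0255). Both values turned on single libraries: without Ctrl replicate 2 the former passed (-0.16, adjusted p = 0.0178), while the latter was lost without Ctrl replicate 1 (adjusted p = 0.163), Ctrl replicate 3 (0.0747) or the unnumbered PURPL-OE-2 library at 1087 CPM (0.126), and with only the compared groups in the fit (0.0663). HSP90B1 was at -0.08 and -0.05 (adjusted p = 0.259 and 0.488), with 1889 to 2167 CPM in Ctrl and 1897 to 2055 CPM over both overexpression groups. Without Ctrl replicate 2 it passed in PURPL-OE-1 (-0.14, adjusted p = 0.0375).

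HERPUD1 rose in both overexpression groups and DNAJB9 in PURPL-OE-1. HERPUD1 stood at 51.4, 51.3 and 49.0 CPM in the Ctrl libraries, at 72.5, 69.5 and 72.4 CPM in PURPL-OE-1 and at 62.7, 57.2 and 65.0 CPM in PURPL-OE-2. The 3 groups did not overlap. It rose by 0.50 ± 0.0591 on the log2 scale in PURPL-OE-1 (1.41-fold, adjusted p = 4.32e-08) and by 0.29 ± 0.0599 in PURPL-OE-2 (1.22-fold, adjusted p = 0.000303). DNAJB9 stood at 24.5, 23.9 and 24.6 CPM in the Ctrl libraries, at 31.1, 29.3 and 32.1 CPM in PURPL-OE-1 and at 29.3, 23.1 and 28.1 CPM in PURPL-OE-2. It rose in PURPL-OE-1 (0.34 ± 0.0809, adjusted p = 0.000981) and was at 0.14 ± 0.0826 in PURPL-OE-2 (adjusted p = 0.183), where 1 unnumbered library lay below all controls. Without that library the PURPL-OE-2 value was 0.24 with adjusted p = 0.0188.

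XBP1 fell in PURPL-OE-1. It stood at 187, 182 and 174 CPM in the Ctrl libraries, at 145, 151 and 160 CPM in PURPL-OE-1 and at 170, 173 and 157 CPM in PURPL-OE-2. The log2 fold change was -0.25 ± 0.0538 (adjusted p = 0.000409) and -0.12 ± 0.0539 (adjusted p = 0.0836), the latter at -0.15 with adjusted p = 0.0441 without Ctrl replicate 3. All overexpression libraries lay below all controls, PURPL-OE-2 only just. With library totals as the only scaling, XBP1 in PURPL-OE-2 (-0.16, adjusted p = 0.0156) and CANX in PURPL-OE-1 (-0.14, adjusted p = 0.0279) also passed. SDF2L1 had 1 to 5 counts per library in the overexpression table (11 counts in all in Ctrl, 7 in PURPL-OE-1 and 9 in PURPL-OE-2). It was too low to be tested there, so whether it changed is not known.

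PURPL-OE-2 against PURPL-OE-1 gave 2 higher and 1 lower of 9 members, where 6.18% of all genes were higher and 6.19% lower, and the members' median was 0.03 beside 0.00 for all genes. CALR was higher in PURPL-OE-2 by 0.38 ± 0.0694 (adjusted p = 0.000642) and PDIA4 by 0.30 ± 0.0570 (adjusted p = 0.00041). HERPUD1 was lower by a log2 difference of -0.21 ± 0.0586 (adjusted p = 0.014). Its call was lost without 2 of the unnumbered PURPL-OE-1 libraries in turn (adjusted p = 0.0681 and 0.0656) or without the unnumbered PURPL-OE-2 library at 57.2 CPM (0.109). XBP1 was at 0.13 (adjusted p = 0.121), and at 0.17 with adjusted p = 0.0442 without PURPL-OE-2 replicate 3. PURPL was lower in PURPL-OE-2 than in PURPL-OE-1 by -0.50 ± 0.0571 (adjusted p = 1.81e-07).

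The genes of the sensors changed separately from one another. ERN1 stood at 18.5, 17.6 and 16.4 CPM in the Ctrl libraries, at 10, 8.9 and 9.65 CPM in PURPL-OE-1 and at 9.86, 9.02 and 8.24 CPM in PURPL-OE-2, with a wide gap between controls and both groups. It fell by 0.88 ± 0.0995 (adjusted p = 1.86e-08) and 0.96 ± 0.102 (adjusted p = 5.54e-09) on the log2 scale. With the guides, at 12.7 to 17.4 CPM against 11.8 to 15.9 CPM in sgCtrl, it was at 0.01 and 0.07 (adjusted p = 0.982 and 0.755). EIF2AK3 measured 51.9, 56.5 and 60.5 CPM in sgCtrl, guide 1 gave 55.9, 49.6 and 52.6 CPM, and guide 2 gave 46.4, 47.3 and 45.4 CPM. It fell with guide 2 (-0.28 ± 0.0731, adjusted p = 0.0047), and was at -0.10 with guide 1 (adjusted p = 0.367). In the overexpression table it rose in PURPL-OE-2 (0.18 ± 0.0570, adjusted p = 0.0118) from 60.9 to 66.2 CPM in Ctrl to 70.3 to 72.3 CPM, a call lost without Ctrl replicate 1 (adjusted p = 0.0543), without Ctrl replicate 2 (0.0554) or with library totals as the only scaling (0.0577). PURPL-OE-1 was at 0.11 (adjusted p = 0.125). ATF6 stayed between 118 and 145 CPM over both tables and passed in none of the 4 comparisons, except that with library totals as the only scaling it was at -0.14 in PURPL-OE-2 (adjusted p = 0.0237).

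ATF3, DDIT3 and PPP1R15A rose with both guides and fell in both overexpression groups. Of the 14 sensor and transducer genes, ERN1 and the others above included, guide 1 raised 5 and lowered 0, and guide 2 raised 5 and lowered 1. In PURPL-OE-1, 3 rose and 7 fell, and in PURPL-OE-2, 5 rose and 6 fell. Of all genes, 11.6% rose and 12.9% fell with guide 1, and 11.9% and 12.4% with guide 2. The all-gene shares were 19.5% and 20.1% in PURPL-OE-1 and 18.9% and 19.6% in PURPL-OE-2. The list's median log2 fold change was 0.09, 0.12, -0.15 and -0.28 in these comparisons. ATF3, a stress-induced transcription factor, measured 6.63 ± 0.694 CPM (SD, n = 3) in sgCtrl, 9.5 ± 0.981 with guide 1 and 13.4 ± 0.933 with guide 2. It rose by 0.52 ± 0.139 (adjusted p = 0.00599) and 1.02 ± 0.133 (adjusted p = 6.47e-07) on the log2 scale. In the overexpression table it fell from 15.7 ± 0.927 CPM in Ctrl to 4.2 ± 0.342 and 4.58 ± 0.388 CPM (log2 -1.90 and -1.77, adjusted p = 2.81e-14 and 2.03e-13). DDIT3 (CHOP) rose from 147 ± 25.8 CPM in sgCtrl to 221 ± 8.43 and 251 ± 23.6 CPM (log2 0.59 and 0.77), and fell from 121 ± 10.1 CPM in Ctrl to 61.4 ± 8.46 and 56.6 ± 9.72 CPM (-0.98 and -1.10). Of its exonic bases, 8.03% lie in same-strand neighbours, so its counts are uncertain. PPP1R15A (GADD34), which helps reverse the PERK signal, rose by 0.21 and 0.47 with the guides and fell by 1.10 and 1.03 with overexpression on the log2 scale. TRIB3, chosen after its values were seen, was at 0.29 and 0.51, then -0.99 and -0.97, with all 4 values past the test. CHAC1, likewise chosen afterwards, passed with neither guide (0.30 and 0.55, adjusted p = 0.376 and 0.0709) and fell in PURPL-OE-1 (-0.97, adjusted p = 0.00489). In PURPL-OE-2 it was at -0.65 (adjusted p = 0.0563). ATF4 mRNA rose in every comparison with a control, by 0.24 and 0.27 with the guides and by 0.23 and 0.28 with overexpression. MBTPS1, the protease that cuts ATF6, rose with overexpression (0.16 and 0.26). Its smaller call was lost without Ctrl replicate 1 (adjusted p = 0.0752) or 1 unnumbered PURPL-OE-1 library (0.0941), and with library totals as the only scaling (0.0732).

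**Figure D4:**
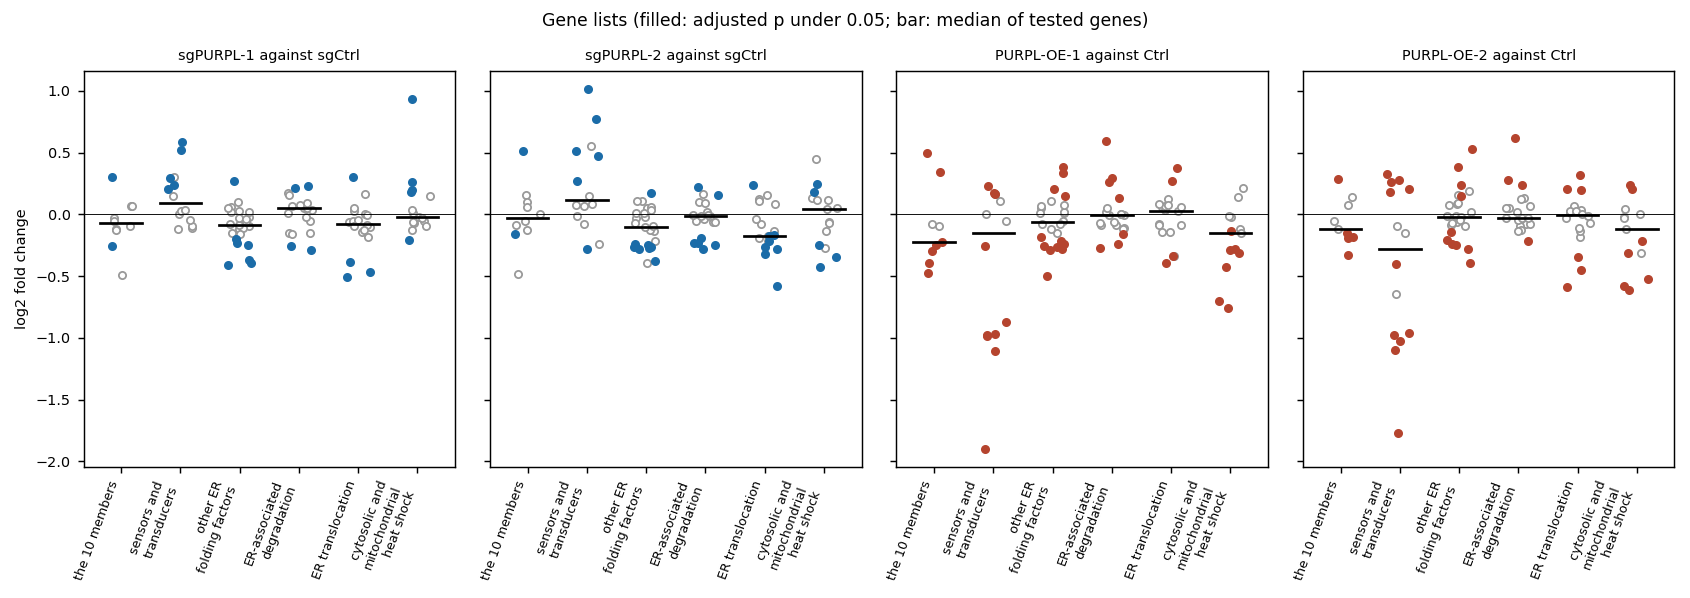
Log2 fold change (y axis) of every tested gene of the 10 members and of 5 lists of neighbouring pathways (x axis) in the 4 comparisons with a control; filled points passed at adjusted p under 0.05, open points did not, and the bar is the list's median. Except with guide 1, the sensor and transducer list spreads widest, from -0.28 to 1.02 with guide 2 and from -1.90 to 0.23 in PURPL-OE-1. With guide 1 it runs from -0.12 to 0.59, and the heat shock list spreads widest, from -0.21 to 0.93. That highest value belongs to HSPE1, a gene of low and uncertain counts.

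Of 26 other ER folding factors 24 were tested: guide 1 raised 1 and lowered 6, guide 2 raised 1 and lowered 7, 4 rose and 8 fell in PURPL-OE-1, and 4 rose and 6 fell in PURPL-OE-2. Among all genes 11.6% rose and 12.9% fell with guide 1, and 11.9% and 12.4% with guide 2. For overexpression these shares were 19.5% and 20.1% in PURPL-OE-1 and 18.9% and 19.6% in PURPL-OE-2. The list's medians were -0.08, -0.10, -0.07 and -0.02. MANF, a secreted ER stress protein, fell in all 4 (-0.41, -0.38, -0.26 and -0.25), and FKBP10, a prolyl isomerase of collagen folding, fell with the guides (-0.39 and -0.28). ERP29 was the gene that rose with both guides (0.27 and 0.17). With overexpression, DNAJC3 (0.34 and 0.38), an inhibitor of PERK and cochaperone of BiP, and the oxidase ERO1B (0.38 and 0.53) rose, while SIL1 (-0.50 and -0.39), the nucleotide exchange factor of BiP, and the prolyl isomerase PPIB (-0.29 and -0.24) fell. Some of these calls were lost with 1 library left out. MANF with guide 1 lost its call without guide 1 replicate 3 (adjusted p = 0.0593), and with guide 2 without sgCtrl replicate 1 (0.0656) or guide 2 replicate 1 (0.132). ERP29 with guide 2 lost it without sgCtrl replicate 2 (0.0625), sgCtrl replicate 3 (0.104), guide 2 replicate 2 (0.112) or guide 2 replicate 3 (0.172). ERO1B in PURPL-OE-1 lost it without Ctrl replicate 1 (0.181) or 2 of that group's libraries in turn (0.0776 and 0.0617). The ERP29 call with guide 2 was also lost with the replicate block (0.0593), with only the compared groups in the fit (0.0656) and without the filter on low counts (0.0737), that of MANF with guide 2 under DESeq2 (0.0501), and that of ERO1B in PURPL-OE-1 under DESeq2 (0.0885) and with library totals (0.0533). FKBP2 and TXNDC5, with 1 and 0 counts over 18 libraries, have 94.3% and 99.9% of their exonic bases inside same-strand neighbours and were not measured.

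ER-associated degradation, to which HERPUD1 belongs, had 19 of 20 genes tested. With the guides 2 rose and 2 fell, then 2 rose and 5 fell. With overexpression 4 rose and 3 fell, then 3 rose and 1 fell. Beside this, 11.6% of all genes rose and 12.9% fell with guide 1, and 11.9% and 12.4% with guide 2. In PURPL-OE-1 19.5% and 20.1% of all genes did so, and in PURPL-OE-2 18.9% and 19.6%. The list's medians were 0.05, -0.02, -0.01 and -0.03. FAM8A1, a partner of the HRD1 ubiquitin ligase, rose by 0.59 and 0.62 with overexpression and the ubiquitin-conjugating enzyme gene UBE2J1 by 0.29 and 0.24. UFD1 rose (0.21 and 0.22) and DERL2 fell (-0.29 and -0.28) with the guides. These 2 calls were weak: UFD1 with guide 1 was lost without sgCtrl replicate 2 (adjusted p = 0.0631), sgCtrl replicate 3 (0.0687), guide 1 replicate 1 (0.0579) or guide 1 replicate 3 (0.0817), and with guide 2 without sgCtrl replicate 3 (0.0576) or guide 2 replicate 1 (0.0801). DERL2 was lost with guide 1 without guide 1 replicate 1 (0.0792) or 3 (0.0618), and with guide 2 without sgCtrl replicate 1 (0.0529) or guide 2 replicate 3 (0.187). Under DESeq2 both DERL2 calls were lost (0.0529 and 0.058).

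Of 18 genes of translocation into the ER and signal peptide removal, all tested, guide 1 raised 1 and lowered 3, and guide 2 raised 1 and lowered 7, with medians of -0.08 and -0.18. In PURPL-OE-1 2 rose and 2 fell and in PURPL-OE-2 3 rose and 3 fell, with medians of 0.03 and -0.01. The shares of all genes up and down were 11.6% and 12.9% with guide 1 and 11.9% and 12.4% with guide 2. They were 19.5% and 20.1% in PURPL-OE-1 and 18.9% and 19.6% in PURPL-OE-2. SPCS3, a subunit of the signal peptidase, went against HSPA5: it fell by 0.51 and 0.58 with the guides and rose by 0.37 and 0.20 with overexpression on the log2 scale. The PURPL-OE-2 call of SPCS3 was lost without 1 unnumbered library of that group (adjusted p = 0.0643). SSR3, of the translocon-associated complex, fell with the guides (-0.39 and -0.32) and SEC63, which brings BiP to the translocon, rose (0.30 and 0.24). With overexpression the signal peptidase gene SEC11A rose (0.27 and 0.31), while its paralog SEC11C (-0.40 and -0.59) and SRP54 of the signal recognition particle (-0.33 and -0.35) fell.

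Cytosolic and mitochondrial heat shock genes gave a comparison outside the ER. Of 17 genes, 15 were tested with the guides, of which 4 rose and 1 fell, then 2 rose and 3 fell (medians -0.02 and 0.04). Of all genes, 11.6% rose and 12.9% fell with guide 1, and 11.9% and 12.4% with guide 2. The all-gene shares were 19.5% and 20.1% in PURPL-OE-1 and 18.9% and 19.6% in PURPL-OE-2. Of the 17 genes, 13 were tested with overexpression, of which 0 rose and 7 fell, then 2 rose and 5 fell (medians -0.15 and -0.12). Among those tested with the guides, HSPE1 (145 counts over 9 libraries, called up with guide 1) and DNAJB4 (105 counts) have 78.8% and 90.3% of their exonic bases inside same-strand neighbours, so their counts are uncertain. HSPA9, the mitochondrial HSP70, rose with the guides (0.26 and 0.24). HSP90AB1 rose too (0.18 and 0.18), although with guide 1 the call was lost without sgCtrl replicate 2 (adjusted p = 0.0664), sgCtrl replicate 3 (0.0551), guide 1 replicate 1 (0.147) or guide 1 replicate 3 (0.0676), or with only the compared groups in the fit (0.0542), and with guide 2 without sgCtrl replicate 2 (0.0521), guide 2 replicate 2 (0.0544) or guide 2 replicate 3 (0.076). HSPH1, the nucleotide exchange factor of cytosolic HSP70, fell in all 4 comparisons (-0.21, -0.43, -0.70 and -0.61), and DNAJA1 fell with overexpression (-0.76 and -0.52).

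Whether knockdown and overexpression acted differently was tested directly, as the mean effect of both guides minus the mean effect of both overexpression groups in 1 fit of all 18 libraries. Each experiment has its own control, so a shift common to 3 groups of a table cancels. Of the 9 members tested in both tables, 4 had a positive difference and 2 a negative one, where 18% of all 15166 genes tested were positive and 15.6% negative. The members' median difference was 0.16, beside 0.01 for all genes. HSPA5 differed most, by 0.62 ± 0.0717 on the log2 scale (adjusted p = 1.92e-09), followed by XBP1 (0.25 ± 0.0733, adjusted p = 0.00552), CANX (0.24 ± 0.0753, adjusted p = 0.0097) and PDIA4 (0.23 ± 0.0740, adjusted p = 0.014). HERPUD1 (-0.41 ± 0.0837, adjusted p = 0.000111) and DNAJB9 (-0.32 ± 0.109, adjusted p = 0.0215) differed the other way. PDIA6, which fell in both experiments, was at 0.16 (95% interval 0.02 to 0.30, adjusted p = 0.0704), HSP90B1 at 0.08 (-0.07 to 0.22) and CALR at 0.03 (-0.14 to 0.20). Among the sensors ERN1 differed by 0.96 ± 0.140 (adjusted p = 3.62e-07) and EIF2AK3 by -0.33 ± 0.0794 (adjusted p = 0.000958), while ATF6 was at -0.01 (-0.15 to 0.13).

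**Figure D5:**
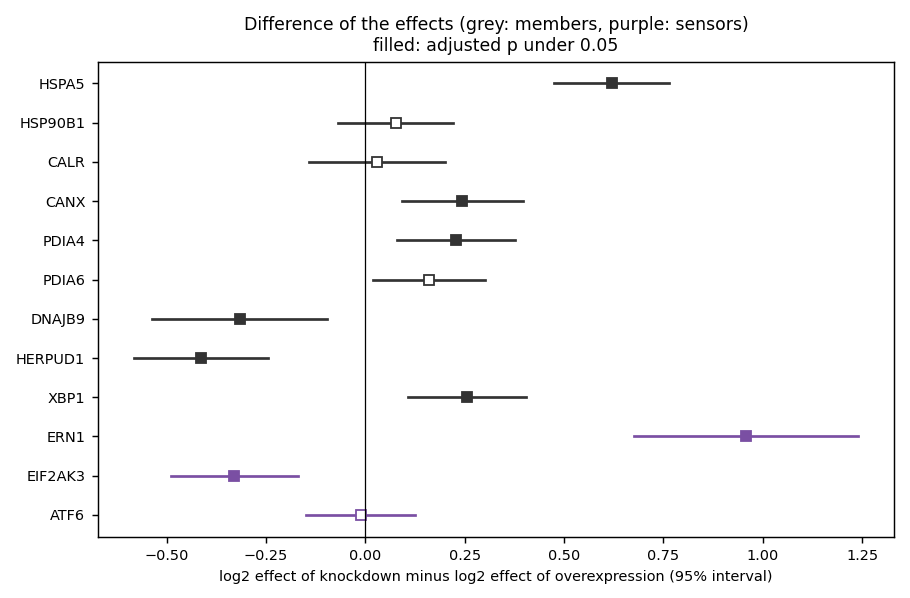
Log2 effect of knockdown (mean of both guides) minus log2 effect of overexpression (mean of both groups) for the 9 members tested in both tables and the 3 sensor genes (y axis); squares are estimates, lines 95% intervals, filled where adjusted p was under 0.05. HSPA5 (0.62) and ERN1 (0.96) lie farthest right, HERPUD1 (-0.41) farthest left.

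Calls on the smaller of these differences also changed with single libraries left out. CANX was lost without Ctrl replicate 1 (adjusted p = 0.0584), DNAJB9 without sgCtrl replicate 1 (0.064) and PDIA4 without Ctrl replicate 2 (0.0814). PDIA6 passed without Ctrl replicate 2 (0.0456), PURPL-OE-2 replicate 3 (0.0296) or sgCtrl replicate 1 (0.0243), and with library totals as the only scaling (0.0187). Among the transducers, ATF3 differed by 2.60 ± 0.151, DDIT3 by 1.72 ± 0.177 and PPP1R15A by 1.41 ± 0.0877, all larger than HSPA5, while ATF4 was at 0.01 ± 0.0826 (adjusted p = 0.968).

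Set beside the ERSE, the calls were as follows. Of the 6 genes that hold it, HSPA5 rose and PDIA6 fell with both guides, and the other 4 did not pass with either. With overexpression HSPA5 and PDIA6 fell in both groups, CALR and XBP1 in PURPL-OE-1 and CANX in PURPL-OE-2, and HSP90B1 passed in neither. HERPUD1, which rose in both overexpression groups, holds no ERSE in these windows but does hold the variant ERSE-II. DNAJB9, which rose in PURPL-OE-1, and PDIA4, which fell in both groups, hold neither. Over the whole series, 15 genes with an ERSE in a window were tested. They include the 6 members above, so the shares below repeat those calls. In PURPL-OE-1, 5 of the 15 fell, among them HSPA5, PDIA6, CALR and XBP1. In PURPL-OE-2, 4 fell, among them HSPA5, PDIA6 and CANX. With guide 1, 13.3% of them rose and 33.3% fell, beside 12% and 13.5% of 10258 tested genes whose windows hold none. With guide 2, 13.3% rose and 20% fell, beside 12.3% and 13.3%. In PURPL-OE-1 20% rose and 33.3% fell, beside 20.4% and 21.8% of 10724 genes, and in PURPL-OE-2 20% and 26.7%, beside 19.9% and 21%. With so few genes these shares are a description.

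The genes most like HSPA5 across the 18 libraries were sought by the smallest root mean square difference in log2 CPM (pseudocount 1), each table centred on its own mean, among 13637 genes tested in both tables. The closest were LONP1, a mitochondrial protease (0.0743), MRPL44, of the mitochondrial ribosome (0.0757), CARS1, the cysteinyl-tRNA synthetase (0.0769), CWC27 (0.0782) and CHD2 (0.0794). CARS1 had log2 fold changes of 0.34 and 0.48 with the guides and -0.17 and -0.10 with overexpression, and LONP1 of 0.21, 0.40, -0.20 and -0.20. All of these passed except CARS1 in PURPL-OE-2 (adjusted p = 0.196). Both genes were picked for likeness in these same libraries, so changes similar to those of HSPA5 follow from the choice. None of the members was among these 5. Their ranks in likeness were 260 for CANX, 648 for HSP90B1, 675 for XBP1, 4519 for CALR, 4698 for PDIA4, 5141 for PDIA6, 8614 for HERPUD1 and 8950 for DNAJB9. By this measure CANX was the member nearest to HSPA5 and DNAJB9 the farthest of the 8 ranked. A gene that changed little can also stand near HSPA5 by this measure, so a rank alone does not show a shared change.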

How the data were processed

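The authors deposited raw read counts per gene in a knockdown and an overexpression table of 9 libraries each. The submitters' processing notes name HISAT2 2.1.0 and featureCounts 2.0.1, beside cutadapt 3.3, FastQC 0.11.9 and SAMtools 1.11, and the builds hg38 and GRCh38.p13. Strand setting and annotation release: not given in the sources used here. As molecule, the labels give genomic DNA, against their own RNA protocol, which was followed. No replicate number stands on 5 columns of the overexpression table (3 of PURPL-OE-1, 2 of PURPL-OE-2), which entered by group only. No pair of libraries agreed within sampling noise.

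Each table was fitted whole in R 4.3.3 with edgeR 4.0.16: filterByExpr (min.count 10, min.total.count 15), TMM, and the robust quasi-likelihood test with Benjamini-Hochberg adjustment and a threshold of 0.05. This test gives every adjusted p in the text. A joint fit of all 18 libraries tested the difference between the effects of knockdown and overexpression. The test was checked on simulated counts. The members and lists were chosen with earlier results of these data known. Named beside the members are the sensors and, of each other list and experiment, up to 2 genes per direction with the largest mean change among those past the test in both arms. Alternatives were RLE scaling, library totals, no low-count filter, DESeq2 1.42.0, a fit of the compared groups only, a replicate block and leaving out each library.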

Additional observations from a re-analysis of the deposited data

Results flagged for a closer look

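These results stand here because a test of the difference itself passed between groups or experiments. No explanation was tested. Between the guides, guide 2 minus guide 1, HSPA5 differed by a log2 value of 0.22 and HSP90B1 by 0.19. Between the overexpression groups, PURPL-OE-2 minus PURPL-OE-1, CALR differed by 0.38, PDIA4 by 0.30 and HERPUD1 by -0.21. Between the experiments, knockdown effect minus overexpression effect, HSPA5 differed by 0.62, CANX by 0.24, PDIA4 by 0.23, XBP1 by 0.25, DNAJB9 by -0.32 and HERPUD1 by -0.41. Of the sensor genes, ERN1 differed by 0.96 and EIF2AK3 by -0.33. CALR is the member with opposite signs in the overexpression groups, down in PURPL-OE-1 and at 0.08 in PURPL-OE-2.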

How the results depend on the processing

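Of 855 values of the members under an alternative, 794 kept direction and side of the threshold. Another 28 lost the call, 16 gained one and 17 changed sign. None of the 17 was a called value. PURPL and the sensors are not in this count, so the sign changes of ERN1 and ATF6 given below stand outside the 17. With guide 2, members called numbered 1 in place of 2 under RLE scaling, without the low-count filter, with only the 2 groups compared and with the replicate block (1 to 4 with a library left out). For guide 2 against guide 1 they numbered 1 in place of 2 with the replicate block (0 to 2 with a library left out), and genes lower with guide 2 numbered 811 in place of 521 with only the 2 groups compared (337 to 378 with a library left out). In PURPL-OE-2 members called ran from 3 to 6 with a library left out, and genes higher in PURPL-OE-2 than in PURPL-OE-1 from 600 to 1052. Sign changes among uncalled values, given as the range with a library left out, were DNAJB9 with guide 1 (-0.092 to 0.0096), ERN1 with guide 1 (-0.15 to 0.093), with guide 2 (-0.058 to 0.14) and between guides (-0.028 to 0.22), HERPUD1 with guide 2 (-0.047 to 0.037), PDIA4 (-0.0029 to 0.083), SDF2L1 (-0.28 to 0.19) and XBP1 (-0.057 to 0.025) between guides, HSPA5 between overexpression groups (-0.017 to 0.067), and ATF6 (-0.039 to 0.019) and CALR (-0.068 to 0.0798) between experiments. With library totals HERPUD1 with guide 2 was at -0.0028, SDF2L1 between guides at -0.0013 and ATF6 between experiments at 0.029. Without the filter the first 2 were at -0.0045 and -0.0041. The cause was not tested. Same-numbered libraries of the knockdown table did not deviate together (correlations -0.136 to 0.0513), so the numbers were not taken to pair them. No paired analysis was possible in the overexpression table because Ctrl and PURPL-OE-2 share 1 number only. SDF2L1 is limited by its low counts.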
